A study of Arabidopsis thaliana with 8 samples.

Results

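This section describes how transcript levels in the leaves of clf-28 plants differed from those in wild-type (wt) leaves of Arabidopsis thaliana. clf-28 is a mutant allele of CURLY LEAF (CLF), in the Col-0 ecotype that the wt plants share. The libraries called leaves were made from the whole aerial part of plants 2 weeks old, raised on MS plates in long days at 22 °C, so that stem, shoot tip and leaves of every age are in them. The labels give 1 clf-28 and 1 wt library of this kind among 8 libraries, the others being roots of the same age and flowers and siliques of soil-grown plants 5 weeks old. How many plants went into a library is not given in the sources used here. A gene was counted as measured in leaves when both libraries had a usable status and at least 1 of them reached 1 FPKM, which is fragments scaled to transcript length and to the mapped fragments of the library. This left 16368 genes of 29994 named loci that no other gene name shares; 13537 were under 1 FPKM in both libraries and 89 lacked a usable status.

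CLF is a catalytic subunit of Polycomb repressive complex 2 (PRC2), which trimethylates lysine 27 of histone H3 and keeps developmental genes silent in tissues where they are not used. Plants that lack CLF are known for narrow, upward-curled leaves, early flowering and transcription of floral organ identity genes outside flowers. The FLOWERING LOCUS C gene (FLC), a repressor of flowering, and FLOWERING LOCUS T (FT), the mobile signal that starts it, are both known to carry the mark in leaves.

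With 1 library per genotype no replicate error exists in leaves, and nothing between these libraries was tested. Effects are given as log2((clf-28 FPKM + 1) / (wt FPKM + 1)), called the log2 ratio below, and genes are counted as higher or lower in clf-28 by a rule of size, a 2-fold difference, where the log2 ratio reaches 1 or -1. The precision of a single value is the authors' own interval around each FPKM. It was wide: its lower bound was 0 for 91.4% of genes with at least 1 FPKM in clf-28 leaves and 91.3% in wt leaves, and its upper bound was in the median 2.41 times the value in both. FPKM summed to 666200 in clf-28 leaves and 656200 in wt leaves, and 16102 and 15896 genes reached 1 FPKM. The number of fragments behind a library is not known. Depth was compared over 107 genes whose interval was read as that of a single fragment in both libraries. Their value in clf-28 leaves was in the median 0.990 times that in wt leaves. This reading assumes that the libraries were not scaled against each other, which is not stated, so like depth is not shown.

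Higher genes outnumbered lower ones in clf-28 leaves. The log2 ratio was at least 1 for 902 genes, which is 5.51% of those measured, and at most -1 for 205, which is 1.25%. The excess grew with size, with 217 genes higher and 8 lower by at least 4-fold, 75 and 3 by at least 8-fold, and 21 and 2 by at least 16-fold. The bulk of genes did not share in it, since the median log2 ratio over all measured genes was -0.02, the 5th to 95th percentile ran from -0.67 to 1.07, and 47.5% of ratios were above 0. Genes under 1 FPKM in wt leaves were measured only through the clf-28 library. Of those under 0.5 FPKM in wt leaves, 124 of 193 (64.2%) were higher, and of those from 0.5 to 1 FPKM, 89 of 337 (26.4%). At higher wt levels the share of higher genes fell from 7.24% to 2.31%. The share of 5.51% is therefore no like measure for lists with many genes low in wt leaves. On the nuclear chromosomes the share of higher genes ran from 4.34% on chromosome 3 to 6.39% on chromosome 1. Close to the limit of the rule lay JMJ30 and IAA6, both at 1.01 and counted, and LUX and DRM1, both at 0.99 and not counted.

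**Figure D1:**
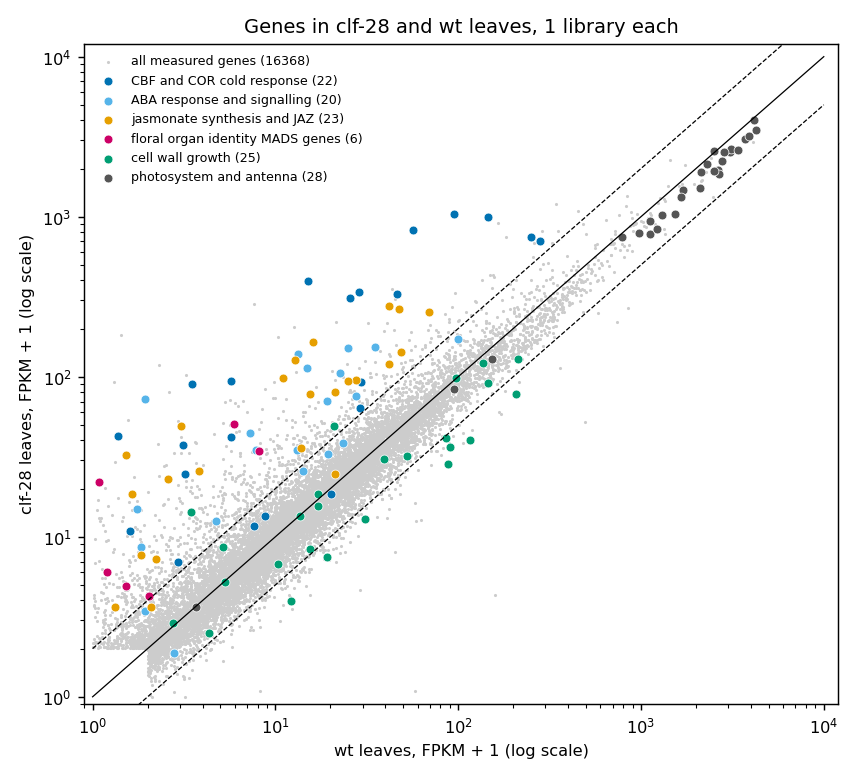
FPKM + 1 in clf-28 leaves (vertical) against wt leaves (horizontal), both on log scales, for 16368 measured genes in grey, with 6 gene lists in colour and the number measured in brackets. The solid line marks equal values and the dashed lines the 2-fold rule on either side; cold, abscisic acid, jasmonate and floral genes lie mostly above the upper dashed line, 8 of 25 cell wall genes lie below the lower one, and photosystem genes follow the solid line.

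The library label was checked against genes that mark cell types. Leaf mesophyll, guard cell, trichome and vascular markers were measured in both libraries, and none of the 29 measured genes of these 4 lists was past the rule in either direction. Guard cell markers had the lowest median, -0.52 over 8 genes, with summed values of 45.3 FPKM in clf-28 leaves and 68.6 FPKM in wt leaves. Of 14 anther and pollen markers, 0 reached 1 FPKM, and their sum was 0.318 FPKM in clf-28 leaves and 0.955 FPKM in wt leaves. Seed markers were near 0 as well, apart from DOG1, a regulator of seed dormancy, at 2.45 FPKM in clf-28 leaves and 6.22 FPKM in wt leaves. Of 9 shoot meristem markers 4 were measured and 0 were past the rule: STM was at 3.21 FPKM in clf-28 leaves and 2.31 FPKM in wt leaves and CLV1 at 29.5 FPKM in clf-28 leaves and 31.1 FPKM in wt leaves, while WUS and CLV3 were under 0.1 FPKM in both libraries. Some members of the antenna and Rubisco families, such as RBCS1A and LHCB1.1, carried no usable status in leaves and have no value.

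The PRC2 genes themselves differed little. CLF stood at 5.50 FPKM in clf-28 leaves and 6.57 FPKM in wt leaves, a log2 ratio of -0.22. A value over the whole gene does not separate transcript parts on either side of a mutation, so it does not check the genotype. SWN, the other catalytic subunit active in seedlings, was at 16.5 FPKM in clf-28 leaves and 15.5 FPKM in wt leaves. EMF2 and VRN2, alternative zinc finger subunits, had log2 ratios of -0.24 and 0.13, and FIE, the WD40 subunit that every form of the complex holds, had -0.35. Of 8 measured PRC2 genes, 0 were past the rule in either direction. The same held for 11 genes of Polycomb complex 1, LHP1 and other readers of the mark, whose log2 ratios ran from -0.25 for EBS to 0.40 for VAL3. Among 10 genes that counteract the mark, 1 was higher and 1 lower, beside 5.51% and 1.25% over all genes. JMJ30, a demethylase under clock control, was at 11.4 FPKM in clf-28 leaves and 5.11 FPKM in wt leaves. ULT1, a trithorax-type factor, was at 3.03 FPKM in clf-28 leaves and 7.42 FPKM in wt leaves. REF6, the main demethylase of the mark, stood at 14.2 FPKM in clf-28 leaves and 16.9 FPKM in wt leaves.

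The floral organ identity genes AG, SEP3 and SEP4 were transcribed well above their wt level in clf-28 leaves. These MADS-domain transcription factors combine to specify sepals, petals, stamens and carpels. Of 15 with a locus of their own, 6 were measured in leaves, and 6 of these were higher in clf-28, with a median log2 ratio of 2.2; AG, SHP2 and PI were under 1 FPKM in wt leaves and entered only through the clf-28 library, so the count is a description and no support for a direction.

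AG, which specifies stamens and carpels (chromosome 4, 10382856 to 10388539), was at 21.0 FPKM in clf-28 leaves and 0.0788 FPKM in wt leaves, a log2 ratio of 4.35. In flowers it stood at 48.8 FPKM in clf-28 and 43.2 FPKM in wt, so the mutant leaf value was below both flower values but far above the wt leaf value. SEP3, the cofactor that joins the other identity proteins into complexes, was at 49.5 FPKM in clf-28 leaves and 4.91 FPKM in wt leaves (log2 ratio 3.09). SEP4, a related cofactor, was at 33.3 FPKM in clf-28 leaves and 7.16 FPKM in wt leaves, which was above its 22.1 FPKM in clf-28 flowers and 18.6 FPKM in wt flowers. SHP2, which acts in carpel and fruit tissue, reached 5.05 FPKM in clf-28 leaves against 0.198 FPKM in wt leaves. PI, needed for petals and stamens, was at 3.90 FPKM in clf-28 leaves and 0.515 FPKM in wt leaves, which was small beside 178 FPKM in clf-28 flowers and 238 FPKM in wt flowers. FUL, a fruit and meristem regulator, was at 3.25 FPKM in clf-28 leaves and 1.03 FPKM in wt leaves, just past the rule with a log2 ratio of 1.07.

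The remaining 9 genes stayed under 1 FPKM in both libraries, with intervals that all reach 0. The value in clf-28 leaves was the higher one for 9 of them, in some by little, as for ABS at 0.0401 FPKM in clf-28 leaves and 0.0268 FPKM in wt leaves. The share over all genes at this level was not worked out, so this count is no support for a direction. AP1, which marks the young flower meristem, was at 0.441 FPKM in clf-28 leaves and 0.0536 FPKM in wt leaves, and AP3, the partner of PI, was at 0.466 FPKM in clf-28 leaves and 0.0405 FPKM in wt leaves. AGL6 came closest to the limit, at 0.924 FPKM in clf-28 leaves and 0.0371 FPKM in wt leaves. LFY, the meristem regulator upstream of this group, was at 0.411 FPKM in clf-28 leaves and 0.0776 FPKM in wt leaves. Over 10 markers of the floral bud, the sum was 76.5 FPKM in clf-28 leaves and 5.95 FPKM in wt leaves, of which AG, SEP3 and PI made up nearly the whole, and UFO and SUP were under 0.1 FPKM in both libraries. Whether floral buds among the aerial parts had a share in these values was not tested. In such bulk tissue, more cells with a transcript and more transcript per cell cannot be told apart.

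In the promoters of these genes (the 250 bases before the annotated start in RefSeq, TAIR10.1), 5 of 6 held the repeat GAGAGA on either strand, against 20.6% of 27443 promoters of nuclear protein-coding genes. With 6 promoters this is a description only.

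Several flowering time genes of both directions were higher. Among promoters of flowering and photoperiod genes 6 of 10 measured were at least 2-fold higher and 0 lower (median log2 ratio 1.31), and among repressors 4 of 13 were higher and 0 lower (median 0.12, or -0.11 among those at 5 FPKM or more), beside 5.51% higher and 1.25% lower over all genes. In each list 4 genes, among them AGL17, MAF5, TFL1 and BFT, were under 1 FPKM in wt leaves and entered only through the clf-28 library, so these counts too are descriptions. FT (chromosome 1, 24331428 to 24333934) was at 18.1 FPKM in clf-28 leaves and 1.004 FPKM in wt leaves, a log2 ratio of 3.25. SOC1, an early target of FT, was already abundant, at 133 FPKM in clf-28 leaves and 60.9 FPKM in wt leaves (1.11). The MADS gene AGL17, which in wt plants was mainly a root transcript at 25.3 FPKM, was at 8.64 FPKM in clf-28 leaves and 0.0257 FPKM in wt leaves (3.23). AGL19 and AGL42, also MADS genes, had log2 ratios of 1.51 and 1.53. CO, the photoperiod factor that activates FT, was under 1 FPKM in both libraries, at 0.552 FPKM in clf-28 leaves and 0.404 FPKM in wt leaves. GI, which acts before CO, hardly differed, with 26.95 FPKM in clf-28 leaves and 23.9 FPKM in wt leaves.

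On the side of the repressors, FLC (chromosome 5, 3173497 to 3179529) was at 16.8 FPKM in clf-28 leaves and 2.61 FPKM in wt leaves (log2 ratio 2.3), and its relative MAF5 was at 7.31 FPKM in clf-28 leaves and 0.810 FPKM in wt leaves (2.2). MAF1 and MAF3, of the same clade, had log2 ratios of 0.12 and -0.03. TFL1 and BFT, which are FT relatives with the opposite effect on flowering, were at 4.58 and 3.68 FPKM in clf-28 leaves and at 0.452 and 0.498 FPKM in wt leaves. SVP, the partner of FLC, went the other way without passing the rule, at 37.7 FPKM in clf-28 leaves and 69.3 FPKM in wt leaves (-0.86), and SNZ and TEM1 did likewise, with -0.93 and -0.79. The authors' intervals of the clf-28 and wt libraries overlapped for every gene named in these paragraphs on flowering.

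**Figure D2:**
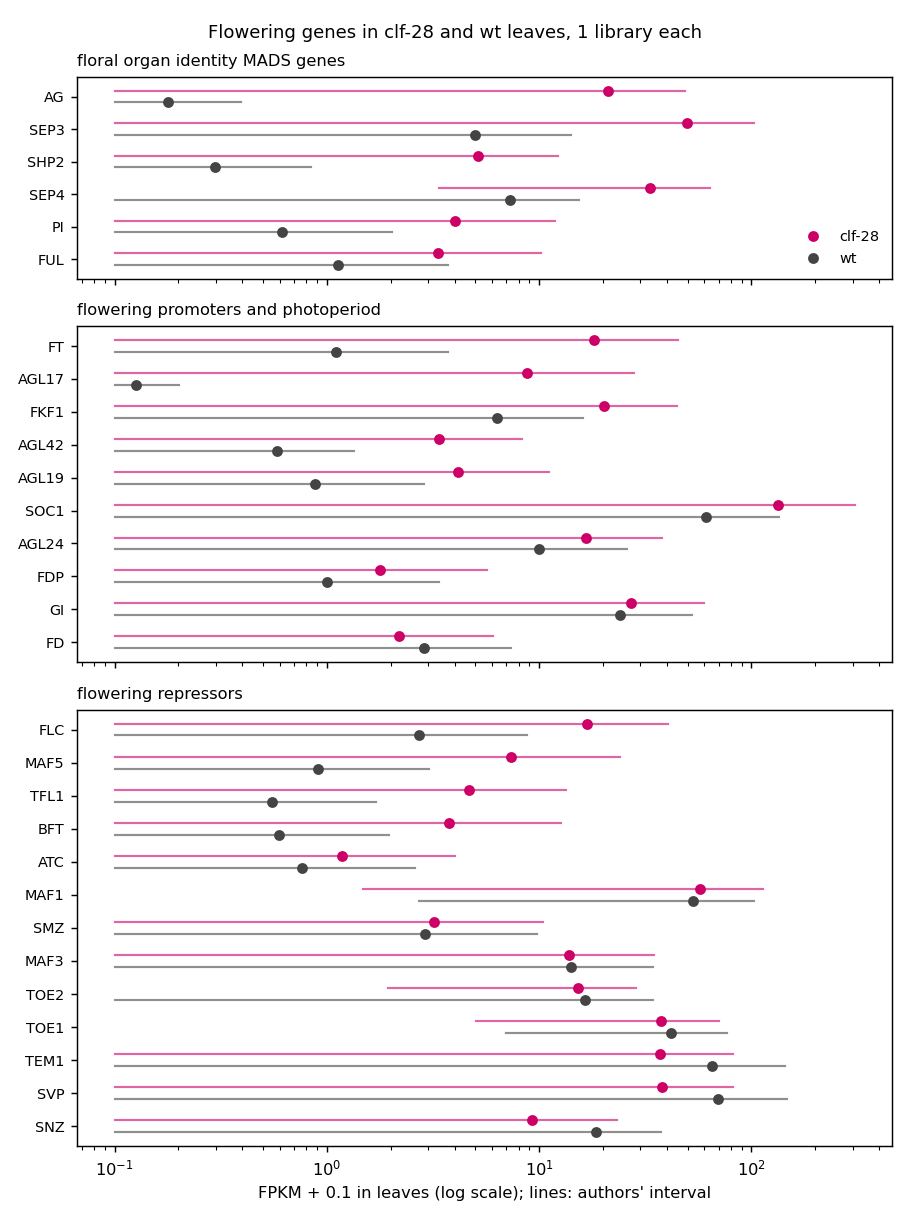
FPKM + 0.1 on a log scale in clf-28 leaves (pink, upper of each pair) and wt leaves (grey, lower) for the measured genes of 3 lists; points are the deposited values, lines the authors' intervals, and a line that starts at 0.1 has a lower bound of 0. The points of AG, SEP3, FT, AGL17 and FLC stand far apart between the genotypes while the intervals still overlap at their lower ends.

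Genes that form the leaf stayed within the rule and mostly below their wt values. Of 27 measured regulators of leaf polarity and growth, 0 passed the rule, and 23 had a log2 ratio of 0 or below (median -0.30). TCP3 and TCP4, which drive the switch of leaf cells out of division, had -0.83 and -0.71, and AS1, which keeps meristem genes off in leaves, was at 16.8 FPKM in clf-28 leaves and 21.8 FPKM in wt leaves. Of 14 measured KNOX, boundary and meristem genes, 1 was higher and 0 lower, which is near the shares of 5.51% and 1.25% over all genes. The higher one was WOX13, a homeobox gene, at 20.5 FPKM in clf-28 leaves and 5.97 FPKM in wt leaves. The class I KNOX genes KNAT2 and KNAT6 had log2 ratios of 0.23 and 0.14, and KNAT1 had -0.34. ATH1, a homeobox gene of the shoot apex, lay just short of the rule with -0.9987.

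Cell division and cell wall genes lay mostly below their wt values. Each of 19 measured cell division genes had a log2 ratio below 0, with a median of -0.46, while 0 passed the rule. CYCB1;2, a mitotic cyclin, was at 8.02 FPKM in clf-28 leaves and 16.6 FPKM in wt leaves (-0.97), and CDKB1;1, a mitotic kinase, was at 3.68 FPKM in clf-28 leaves and 6.88 FPKM in wt leaves. Over all measured genes, 47.5% had a ratio above 0. Expansins and xyloglucan endotransglucosylases (XTH), which loosen walls in growing cells, held 8 lower and 2 higher genes among 25 measured, beside 1.25% lower and 5.51% higher over all genes. EXPA8 was at 27.4 FPKM in clf-28 leaves and 87.1 FPKM in wt leaves (-1.63), EXPA1 at 76.5 FPKM in clf-28 leaves and 206 FPKM in wt leaves (-1.42), and XTH8 at 2.96 FPKM in clf-28 leaves and 11.1 FPKM in wt leaves (-1.62). XTH7, XTH15, XTH16 and XTH6 had log2 ratios from -1.37 to -1.05. XTH9 also passed, with -1.54, but its deposited locus spans 137212 bases and overlaps 48 other loci. Opposite to these, XTH18 was at 13.3 FPKM in clf-28 leaves and 2.47 FPKM in wt leaves (2.04), and EXPA10 was at 48.5 FPKM in clf-28 leaves and 19.97 FPKM in wt leaves (1.24). The median of the list was -0.67.

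Many genes of cold, drought and abscisic acid (ABA) response were higher in clf-28 leaves. In cold, CBF transcription factors bind the C-repeat (CRT/DRE) of COR genes, whose products protect membranes and proteins from water loss, and in drought ABA acts on many of the same genes through a second element, the ABRE. Of 22 measured CBF and COR genes, 19 were at least 2-fold higher in clf-28 leaves and 0 lower, with a median log2 ratio of 2.86, beside 5.51% higher over all genes; 2 of the 22, RD29B among them, were under 1 FPKM in wt leaves and entered only through the clf-28 library.

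The promoters below are those of the 4 genes with the largest log2 ratios in this list whose 250 bases before the RefSeq start (TAIR10.1) hold the CRT/DRE core. They are shown 5′ to 3′ on the strand of the gene, with capitals on the CRT/DRE core CCGAC and the ABRE core ACGTG on either strand.
RD29B (chr5:21236771-21237020, plus strand): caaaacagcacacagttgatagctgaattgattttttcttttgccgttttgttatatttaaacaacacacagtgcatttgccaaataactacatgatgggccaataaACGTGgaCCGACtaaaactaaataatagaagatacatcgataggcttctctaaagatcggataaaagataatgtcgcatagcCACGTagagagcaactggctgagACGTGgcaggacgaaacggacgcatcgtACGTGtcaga
COR78 (chr5:21240467-21240716, plus strand): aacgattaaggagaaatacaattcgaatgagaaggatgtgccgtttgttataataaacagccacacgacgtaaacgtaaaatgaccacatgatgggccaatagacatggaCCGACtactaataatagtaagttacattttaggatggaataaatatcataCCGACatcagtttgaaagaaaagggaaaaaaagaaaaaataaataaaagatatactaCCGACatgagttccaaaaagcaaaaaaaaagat
LTI30 (chr3:18940393-18940642, plus strand): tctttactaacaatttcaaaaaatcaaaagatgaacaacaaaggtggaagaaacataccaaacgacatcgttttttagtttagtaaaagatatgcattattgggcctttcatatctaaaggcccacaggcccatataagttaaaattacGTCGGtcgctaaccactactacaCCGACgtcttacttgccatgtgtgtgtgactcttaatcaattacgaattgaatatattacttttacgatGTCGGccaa
ERD7 (chr2:7757930-7758179, minus strand): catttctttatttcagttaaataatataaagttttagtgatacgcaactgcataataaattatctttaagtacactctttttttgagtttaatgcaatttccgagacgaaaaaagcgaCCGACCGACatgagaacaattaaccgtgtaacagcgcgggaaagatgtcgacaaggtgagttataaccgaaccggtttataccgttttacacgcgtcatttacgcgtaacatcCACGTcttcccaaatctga
The promoter of RD29B holds 1 CRT/DRE core and 4 ABRE cores, that of COR78 holds 3 and 0, that of LTI30 holds 3 and 0, and that of ERD7 holds 2 and 1, the 2 CRT/DRE cores of ERD7 sharing a base. Over the list, 9 of 22 promoters held CCGAC (40.9%) and 11 held ACGTG (50%), against 12.0% and 22.9% of 27443 promoters of nuclear protein-coding genes. A match is a run of letters and not a site shown to be bound.

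RD29B, a hydrophilic protein gene that responds to ABA, was at 41.6 FPKM in clf-28 leaves and 0.377 FPKM in wt leaves. Its neighbour COR78, also known as RD29A, was at 394 FPKM in clf-28 leaves and 14.2 FPKM in wt leaves. LTI30, a dehydrin gene, was at 93.7 FPKM in clf-28 leaves and 4.68 FPKM in wt leaves, and the log2 ratios of these genes were 4.95, 4.70 and 4.06. ERD7 was at 310 FPKM in clf-28 leaves and 24.6 FPKM in wt leaves (3.60), and ERD10, another dehydrin gene whose promoter window holds neither element, was at 830 FPKM in clf-28 leaves and 55.4 FPKM in wt leaves (3.88). COR15A, which encodes a chloroplast stroma protein that stabilises membranes in frost, was at 339 FPKM in clf-28 leaves and 27.6 FPKM in wt leaves (3.57). KIN2 reached 1045 FPKM in clf-28 leaves against 94.4 FPKM in wt leaves, and KIN1 89.1 FPKM in clf-28 leaves against 2.52 FPKM in wt leaves, although reads of this near-identical pair, and of COR15A and COR15B, may have been split between the copies in either library.

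CBF1 and CBF2, which act above these, did not pass the rule, and no other CBF gene was among the measured genes of the list. CBF1 was at 10.7 FPKM in clf-28 leaves and 6.68 FPKM in wt leaves, and CBF2 was at 17.5 FPKM in clf-28 leaves and 19.1 FPKM in wt leaves. DREB2A, a related factor of drought and heat response that reads the same element, was at 40.9 FPKM in clf-28 leaves and 4.70 FPKM in wt leaves (2.88).

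ABA genes followed the COR genes. Of 20 measured, 14 were higher and 0 lower, with a median of 2.0, beside 5.51% and 1.25% over all genes; 4 of the 20, HAI1 among them, were under 1 FPKM in wt leaves and entered only through the clf-28 library. NCED3, the enzyme that limits ABA synthesis under drought, was at 43.6 FPKM in clf-28 leaves and 6.26 FPKM in wt leaves (2.62), and CYP707A3, which breaks ABA down, was at 11.5 FPKM in clf-28 leaves and 3.74 FPKM in wt leaves (1.40). The clade A protein phosphatases that restrain ABA signalling were among the highest: HAI1 was at 71.5 FPKM in clf-28 leaves and 0.933 FPKM in wt leaves (5.23), AHG3 at 150 FPKM in clf-28 leaves and 23.9 FPKM in wt leaves (2.60), and ABI1 at 152 FPKM in clf-28 leaves and 34.1 FPKM in wt leaves (2.13). ATHB-7, an ABA-responsive homeobox gene, was at 137 FPKM in clf-28 leaves and 12.3 FPKM in wt leaves (3.37), and RD26, a NAC factor, was at 112 FPKM in clf-28 leaves and 14.0 FPKM in wt leaves (2.91). ABI3, ABI4 and AHG1, which act mainly in seeds, were under 0.1 FPKM in both libraries. The core ACGTG stood in 13 of 20 promoters of this list (65.0%).

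Jasmonate genes were higher at almost every step. Of 23 measured genes, 21 were at least 2-fold higher and 0 lower, with a median of 2.05, beside 5.51% and 1.25% over all genes; 4 of the 23, AOC3 among them, were under 1 FPKM in wt leaves and entered only through the clf-28 library. Along the pathway from linolenic acid, LOX3 was at 48.1 FPKM in clf-28 leaves and 2.04 FPKM in wt leaves (4.01), AOS at 141 FPKM in clf-28 leaves and 47.6 FPKM in wt leaves (1.55), and OPR3 at 126 FPKM in clf-28 leaves and 11.8 FPKM in wt leaves (3.31). The allene oxide cyclases AOC1, AOC2 and AOC3, which lie side by side on chromosome 3 (9403883 to 9410567), had log2 ratios of 3.35, 2.72 and 4.41, while AOC4 on chromosome 1 was at 23.6 FPKM in clf-28 leaves and 20.2 FPKM in wt leaves (0.21); the adjacent copies are alike, and how reads were shared among them is uncertain. JAR1, which joins jasmonate to isoleucine to give the active hormone, was at 94.9 FPKM in clf-28 leaves and 26.5 FPKM in wt leaves (1.80), and CYP94B3, which turns that hormone over, was at 6.31 FPKM in clf-28 leaves and 1.22 FPKM in wt leaves (1.72). Of the JAZ repressors, 10 of 10 measured were higher, from 1.39 for JAZ3 to 3.48 for JAZ5. MYC2, the factor they bind, was at 77.4 FPKM in clf-28 leaves and 14.5 FPKM in wt leaves (2.33). PDF1.2, a defensin of the ethylene branch, was at 2.66 FPKM in clf-28 leaves and 1.09 FPKM in wt leaves and did not pass the rule.

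**Figure D3:**
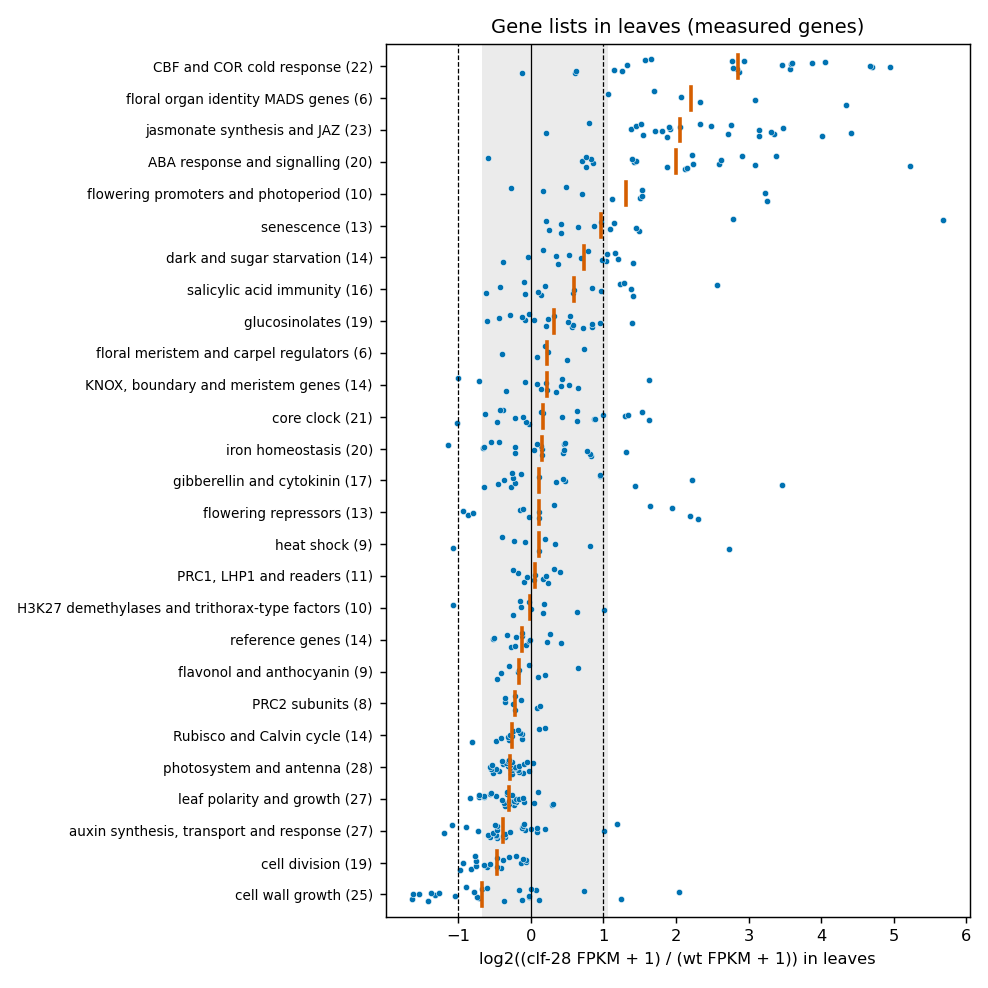
Log2 ratio in leaves of each measured gene (blue points) of 27 gene lists, ordered by the list's median (orange bar), with the number measured in brackets; points are spread within a row for legibility. The grey band is the 5th to 95th percentile of all measured genes (-0.67 to 1.07) and the dashed lines mark the 2-fold rule; CBF and COR genes have the highest median (2.86) and cell wall genes the lowest (-0.67).

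Other stress groups had smaller medians. Of 16 measured salicylic acid and immunity genes, 5 were higher and 0 lower (median 0.59), beside 5.51% and 1.25% over all genes, and 3 of the 16, PR1 among them, were under 1 FPKM in wt leaves: the WRKY factors WRKY18, WRKY33 and WRKY40 had log2 ratios of 2.57, 1.28 and 1.23, PR1 was at 2.03 FPKM in clf-28 leaves and 0.138 FPKM in wt leaves, and ICS1, which makes salicylic acid, was at 9.74 FPKM in clf-28 leaves and 10.3 FPKM in wt leaves. Of 9 measured heat shock genes, 1 was higher and 1 lower, HSFA6B with 2.73 and HSFA7A with -1.07, beside 5.51% and 1.25% over all genes. HSFA6B was at 0.0336 FPKM in wt leaves and entered only through the clf-28 library. The chaperone HSP101 stood at 1.94 FPKM in clf-28 leaves and 2.09 FPKM in wt leaves. Senescence genes had 6 of 13 higher and 0 lower (median 0.97), beside 5.51% and 1.25% over all genes. They were led by the NAC factor ANAC019 at 118 FPKM in clf-28 leaves and 1.31 FPKM in wt leaves (5.68), whereas SAG12, the marker of late senescence, was under 0.1 FPKM in both libraries.

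Photosynthesis genes stayed within the rule and mostly a little below their wt values. Of 28 measured photosystem and antenna genes and 14 Rubisco and Calvin cycle genes, 0 passed the rule, with medians of -0.28 and -0.25. The log2 ratio was below 0 for 27 of the 28 and 12 of the 14. LHCB1.1, RBCS1A and other members without a usable status are not among them. PSBR, a photosystem II subunit, was at 4028 FPKM in clf-28 leaves and 4162 FPKM in wt leaves, and RBCS1B, a Rubisco small subunit, was the farthest from 0 at 779 FPKM in clf-28 leaves and 1357 FPKM in wt leaves (-0.80). The 14 reference genes had a median of -0.12 and 0 past the rule; ACT2 was at 232 FPKM in clf-28 leaves and 281 FPKM in wt leaves.

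Of 21 measured clock genes, 4 were higher and 1 lower, beside 5.51% and 1.25% over all genes, and 1 of the 21 was under 1 FPKM in wt leaves. TOC1, ELF4, FKF1 and BOA, which in wt plants peak in the later part of the day or the evening, had log2 ratios of 1.63, 1.3, 1.54 and 1.34, and LHY, which peaks at dawn, was at 9.19 FPKM in clf-28 leaves and 19.6 FPKM in wt leaves (-1.02). CCA1, the dawn partner of LHY, was at 48.6 FPKM in clf-28 leaves and 49.6 FPKM in wt leaves. The hour of harvest is not given in the sources used here, and its part in these values and in those of the clock-gated cold and jasmonate genes was not tested.

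Hormone genes of growth differed at single points. The gibberellin-inactivating enzyme gene GA2OX6 was at 32.5 FPKM in clf-28 leaves and 2.03 FPKM in wt leaves (3.46), and GA2OX2, of the same class, was at 4.58 FPKM in clf-28 leaves and 1.06 FPKM in wt leaves (1.44). RGL3, a DELLA repressor of gibberellin response, was at 13.2 FPKM in clf-28 leaves and 2.05 FPKM in wt leaves (2.22), while its relatives GAI and RGA had -0.45 and -0.22. Over 17 measured gibberellin and cytokinin genes, 3 were higher and 0 lower, beside 5.51% higher and 1.25% lower over all genes, and 1 of the 17 was under 1 FPKM in wt leaves. Auxin genes had 2 higher and 2 lower of 27, beside the same shares over all genes, and a median of -0.39. The higher gene IAA6, at 0.355 FPKM in wt leaves, entered only through the clf-28 library. IAA1 and SAUR15, which auxin induces quickly, had -1.20, on a locus of 103006 bases that overlaps 28 others, and -1.09; GH3.5, which conjugates auxin to amino acids, had 1.18, and the transporters PIN3, PIN4 and PIN7 ran from -0.59 to -0.47.

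Few single genes were separated by the authors' intervals. Past the rule, 10 genes (0.0611%) had intervals that did not overlap, and 10 of them were higher in clf-28 leaves. LEA7, a late embryogenesis abundant protein gene (chromosome 1, 19619745 to 19623461), was at 182 FPKM in clf-28 leaves with an interval of 70.3 to 294, and at 0.432 FPKM in wt leaves with an interval of 0 to 1.45. Its log2 ratio of 6.997 was the largest measured, and its locus overlaps that of 1 other gene. AFP3, which binds the ABA factor ABI5, was at 69.6 FPKM in clf-28 leaves and 5.68 FPKM in wt leaves (3.40). GBF3, a bZIP factor of ABA response, was at 59.4 FPKM in clf-28 leaves and 6.02 FPKM in wt leaves (3.11). AT3G05640, annotated as a protein phosphatase 2C, was at 83.2 FPKM in clf-28 leaves and 7.81 FPKM in wt leaves (3.26), and OPR3 of jasmonate synthesis, given above, was separated too. AT1G78070, a WD40 repeat protein gene, stood at 220 FPKM in clf-28 leaves and 20.5 FPKM in wt leaves (3.36). The others were AT1G69480, AT1G51270, AT4G13575 and AT1G73390, with log2 ratios of 3.15, 2.47, 2.41 and 2.09.

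Other genes with large ratios had intervals that overlapped. AT4G28140, an AP2/ERF-type factor gene, was at 91.6 FPKM in clf-28 leaves and 0.316 FPKM in wt leaves (6.14). PUB19, a U-box ubiquitin ligase gene of drought response, was at 102 FPKM in clf-28 leaves and 2.25 FPKM in wt leaves (4.99). FAMT, a methyltransferase gene, was at 52.4 FPKM in clf-28 leaves and 0.560 FPKM in wt leaves (5.10), and DIP2 was at 79.0 FPKM in clf-28 leaves and 1.62 FPKM in wt leaves (4.93). LEA4-5 and MAPKKK18 had 4.47 and 4.1. Of the 50 largest log2 ratios, 13 belonged to the cold, ABA or jasmonate lists, which hold 22, 20 and 23 of the 16368 measured genes. The lists were chosen with earlier results of these data known, so this count is a description only.

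Of the genes that were lower, 0 had separate intervals, and the largest ratios are given by size. AT3G01345 (chromosome 3, 129138 to 130749), of unknown function, was at 0.0890 FPKM in clf-28 leaves and 57.1 FPKM in wt leaves (-5.74). It was also nearly absent from the 3 other clf-28 libraries, for example at 0.0101 FPKM in clf-28 roots and 37.6 FPKM in wt roots. AT3G16670 and AT3G16660, neighbours annotated as pollen Ole e 1 allergen and extensin family genes, were leaf transcripts, at 3.31 and 6.97 FPKM in clf-28 leaves and at 157 and 44.3 FPKM in wt leaves, and under 1 FPKM in roots and flowers of both genotypes. AT3G05730, a defensin-like gene, was at 50.8 FPKM in clf-28 leaves and 493 FPKM in wt leaves (-3.25). AT2G43590, a chitinase family gene, was at 3.63 FPKM in clf-28 leaves and 27.9 FPKM in wt leaves, and in roots it was at 156 FPKM in clf-28 and 155 FPKM in wt. FLA9, an arabinogalactan protein gene of the cell surface, was at 11.7 FPKM in clf-28 leaves and 61.4 FPKM in wt leaves (-2.30). DREB26, an AP2/ERF factor gene, was at 3.34 FPKM in clf-28 leaves and 14.5 FPKM in wt leaves (-1.84), but higher in clf-28 roots, with 44.2 FPKM against 9.76 FPKM in wt roots. AT3G55240 and AT2G27402 had -1.83 and -2.24, and TPPH, of trehalose metabolism, had -1.79 on a locus of 262865 bases that overlaps 84 others.

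A set of 28 genes was under 0.5 FPKM in wt leaves and at 5 FPKM or more in clf-28 leaves. In the other direction only AT3G01345 and MRD1, at 0.0859 FPKM in clf-28 leaves and 7.25 FPKM in wt leaves, met the mirrored limits. Among wt organs, 13 of the 28 had their highest value in flowers, 8 in roots and 7 in siliques, and 0 were under 0.5 FPKM in all wt organs. Since the set was picked for low wt leaf values, a highest value outside leaves was nearly fixed in advance. For some the highest wt value was itself under 1 FPKM, such as RD29B at 0.689 FPKM in wt roots. The set held genes with more transcript in another wt organ than in wt leaves. SWEET10, a sugar transporter gene, was at 9.90 FPKM in clf-28 leaves and 0.167 FPKM in wt leaves, and at 66.3 FPKM in clf-28 flowers and 64.7 FPKM in wt flowers. HB40 and HB21, a related pair of homeobox genes, were at 12.1 and 12.0 FPKM in clf-28 leaves and at 0.105 and 0.0797 FPKM in wt leaves. UMAMIT23, an amino acid transporter family gene, was at 5.26 FPKM in clf-28 leaves and 0.127 FPKM in wt leaves. RAP2.6, an ERF factor gene, was at 6.10 FPKM in clf-28 leaves and 0.0791 FPKM in wt leaves, and in roots at 92.1 FPKM in clf-28 and 17.0 FPKM in wt. ABA-linked genes were in it too, among them TSPO at 15.9 FPKM in clf-28 leaves and 0.0691 FPKM in wt leaves, and EDL3 at 14.5 FPKM in clf-28 leaves and 0.220 FPKM in wt leaves.

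**Figure D4:**
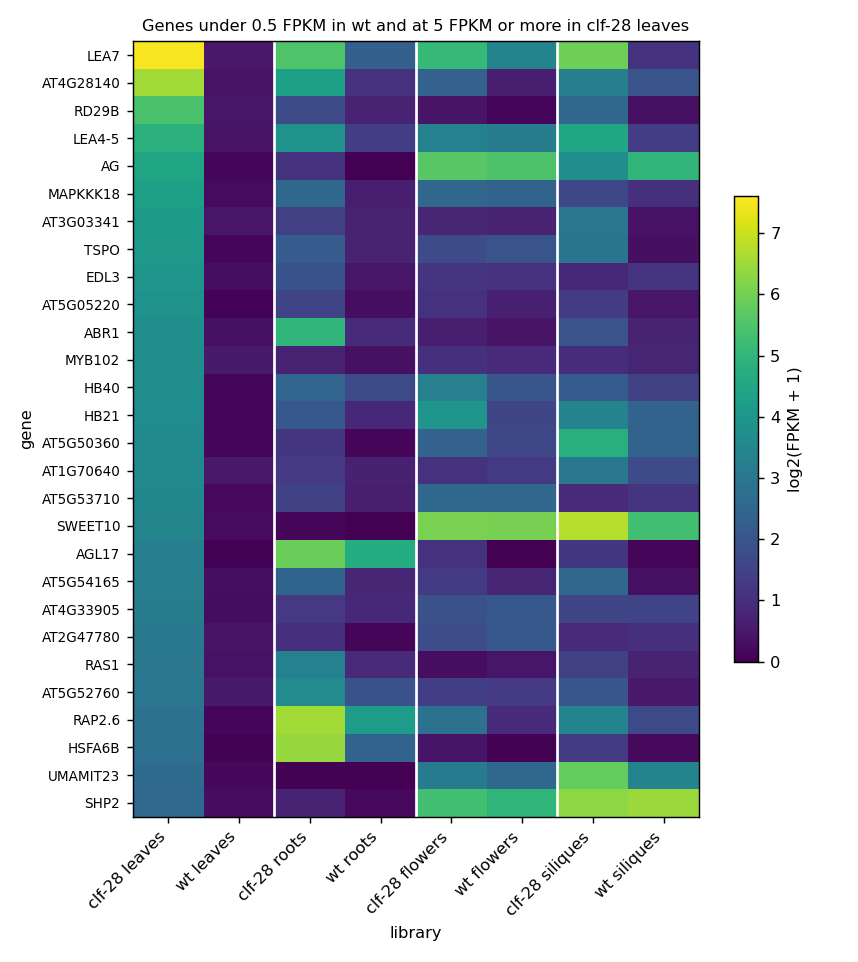
Log2(FPKM + 1) in 8 libraries (columns, clf-28 left of wt within each organ) for 28 genes (rows) under 0.5 FPKM in wt leaves and at 5 FPKM or more in clf-28 leaves, ordered by the clf-28 leaf value. LEA7 is the brightest in clf-28 leaves at 182 FPKM, AG, SWEET10 and SHP2 are bright in flowers and siliques of both genotypes, and AGL17 is bright in roots.

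Higher genes made up 5.42% of measured genes in roots, 1.31% in flowers and 11.3% in siliques, and lower genes 1.14%, 0.992% and 7.94%. Markers of other tissues also differed in those organs: seed and embryo markers with a usable status summed to 16410 FPKM in clf-28 siliques and 30.06 FPKM in wt siliques (9 markers), and to 0.2502 FPKM in clf-28 roots and 51.45 FPKM in wt roots (15 markers), and their part in the comparison of organs was not tested. Of the 902 genes higher in clf-28 leaves, 782 were measured in roots and 317 were higher there too, which is 40.5% of the leaf genes and 45.4% of the root genes, while 4.55% of all genes measured in both were higher in roots. In siliques 302 were shared, 36.4% of the leaf genes and 22.4% of the silique genes, with 8.54% of all genes higher. Flowers shared 70, 8.96% of the leaf genes and 31.8% of the flower genes, with 1.40% of all genes higher. The median log2 ratio of the leaf genes was 0.79 in roots, 0.61 in siliques and 0.11 in flowers. Of the genes lower in leaves, 16 were also lower in roots (10.1% of the leaf genes and 12.0% of the root genes, with 0.867% of all genes lower), 13 in flowers (7.18% and 10.7%, with 0.775%) and 53 in siliques (29.8% and 5.54%, with 6.06%).

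Lists differed in how far they reached. Jasmonate genes had a median of 2.05 in leaves and 2.45 in roots, but 0.27 in flowers and 0.49 in siliques. CBF and COR genes had 2.86 in leaves, 1.63 in roots, 0.49 in flowers and 0.27 in siliques. COR15A, with hardly any root transcript, was higher in clf-28 in leaves only by the rule of size, and in siliques it was at 7.17 FPKM in clf-28 and 77.4 FPKM in wt. Photosystem genes, at -0.28 in leaves, stood at -1.40 in roots and -1.31 in siliques. These differences between organs were not tested list by list.

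**Figure D5:**
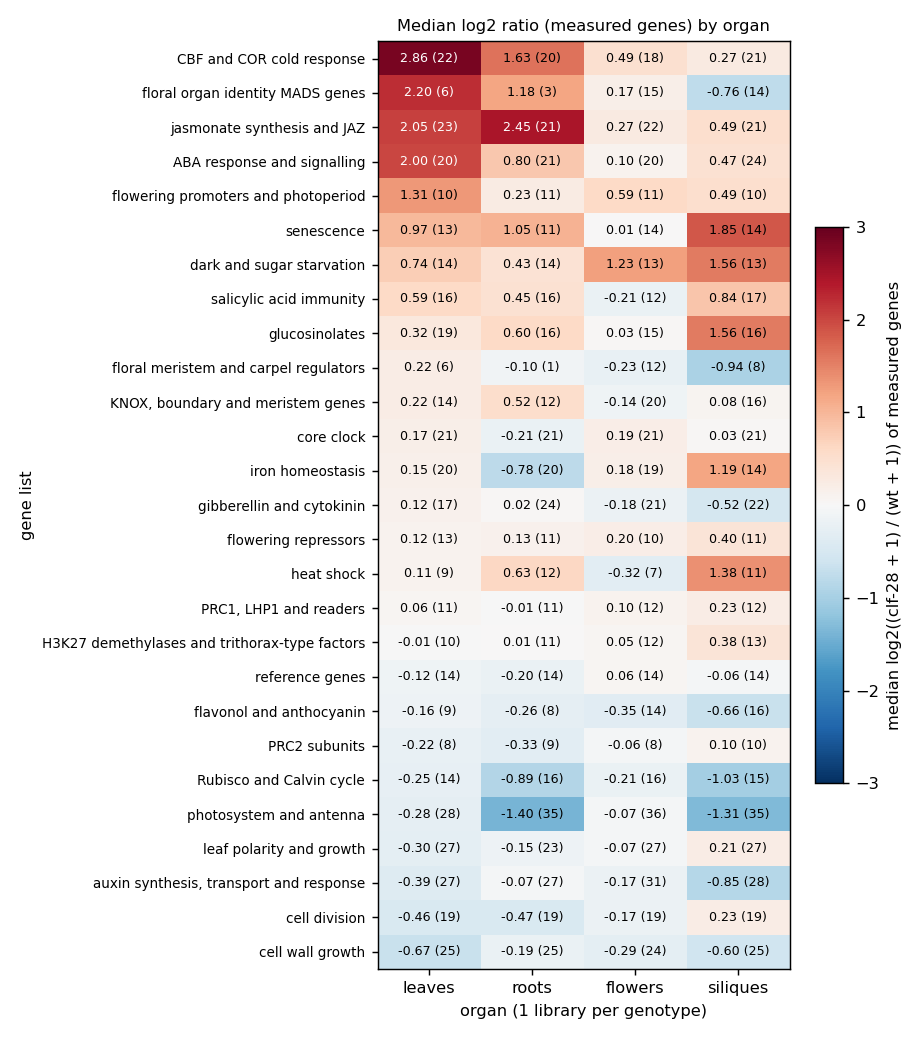
Median log2 ratio of clf-28 over wt for 27 gene lists (rows, ordered by the leaf value) in 4 organs (columns, 1 library per genotype in each), with the number of measured genes in brackets; red is higher and blue lower in clf-28. Jasmonate genes are red in leaves (2.05) and roots (2.45), floral organ identity genes are red in leaves (2.2) and blue in siliques (-0.76), and photosystem genes are pale in leaves (-0.28).

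Whether a gene differed in leaves beyond what clf-28 did elsewhere was tested with limma on 21102 genes, the error being the spread of the clf-28 effect over roots, flowers and siliques, with 2 residual degrees of freedom. At an adjusted p (Benjamini-Hochberg) under 0.05, 0 genes passed in either direction (0.00%), and at an unadjusted p under 0.05 there were 348 higher (1.65%) and 144 lower (0.682%). In the simulated data 4.86% of unchanged genes had an unadjusted p under 0.05 in limma, more than these shares together. The genes below are therefore given by rank only. The smallest p values belonged to genes with a flat response outside leaves. AT3G16670 was lower in leaves by a further log2 difference of -5.18 ± 0.28 (SE; adjusted p = 1 in limma). RD20, a caleosin gene of drought response, differed by 5.22 ± 0.39 (SE; adjusted p = 1 in limma); it was at 286 FPKM in clf-28 leaves and 6.67 FPKM in wt leaves, and at 335 FPKM in clf-28 flowers and 454 FPKM in wt flowers. LBD1, a LOB-domain gene, differed by 3.40 ± 0.30, ABCG1 by 2.57 ± 0.25, AIRP2, a ubiquitin ligase gene of ABA response, by 2.16 ± 0.21 and MYB102 by 2.95 ± 0.30 (SE), each with an adjusted p of 1 in limma. BT5 and AT2G20670 were lower in leaves and higher elsewhere, with log2 ratios of -0.96 and -0.74 in leaves against means of 1.29 and 0.94 in the other organs, and an adjusted p of 1 in limma.

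Promoter letters were counted over all genes past the rule. The ABRE core ACGTG, on either strand, stood in 352 of 879 promoters of protein-coding genes higher in clf-28 leaves (40%), in 54.1% of those at least 8-fold higher and in 18.4% of those lower, against 23.7% of promoters of measured genes and 22.9% of all. The CRT/DRE core CCGAC stood in 19.6%, 36.5% and 9.69% of the same groups, against 13.3% and 12.0%. The site II element TGGGCC, which is frequent in promoters of ribosomal and other housekeeping genes, stood in 7.17% of promoters of higher genes and 17.3% of those of measured genes. ACGTG and CCGAC can share letters, so that 1 run can count for both.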

How the data were processed

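Per the submitters' processing notes, the authors used TopHat, Cufflinks and the TAIR10 genome; versions and settings are not given in the sources used here. Per the file headers, the deposited Cufflinks table holds 34759 loci with an FPKM, its interval bounds and a status flag (unit other, the authors' own mark of a usable value) for each of 8 libraries. Whether libraries were scaled against each other is not stated. Read counts were not used here, so absolute depth is not known. Relative depth was read from genes whose interval was taken to have the width of 1 fragment, assuming no scaling between libraries.

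Gene statements rest on 29994 loci with 1 name that no other locus carries. Loci with several names (1098), names spread over several loci (2776) and loci without a name (891) were kept apart. Symbols, products and promoters came from RefSeq (TAIR10.1), and 99.9% of matched nuclear genes overlap their deposited locus. Whether counting used strand is not stated, and 233 of 1107 genes past the 2-fold rule overlap another deposited locus.

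A pseudocount of 1 FPKM was added before log2. The only test, limma 3.58.1 (R 4.3.3, trend on, each organ its own pair), asked for a leaf term beyond the clf-28 effect in the 3 other organs, with Benjamini-Hochberg adjustment. It was tested on simulated data. Nothing in the labels says that the libraries came from separate cultures, so its p values measure only the spread of the effect over these organs. Named genes are the higher genes with separate intervals, filled by size at 10 FPKM or more to 10 a direction, genes under 0.5 FPKM in 1 library and at 5 or more in the other, list members past the rule or named for a known role, and the 5 smallest p each way. The 20 largest higher ratios at 10 FPKM or more were added after their values were seen. Genes, 27 gene lists and 9 marker lists (539 of 583 listed genes had a locus of their own) were chosen with earlier results of these data known. Alternatives were other pseudocounts, filters, scalings and locus sets, and leaving out an organ. Tables were made in Python 3.11.15 with pandas 2.3.3 and numpy 2.4.6, plots with matplotlib 3.10.9.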

Additional observations from a re-analysis of the deposited data

Results flagged for a closer look

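Floral organ identity genes had opposite medians in leaves and siliques: 2.2 over 6 measured genes in leaves and -0.76 over 14 in siliques. The difference was not tested, and the measured genes are not the same in both organs.

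A deposited locus that joins the names of VSP2 and VSP1 (AT5G24770 and AT5G24780), vegetative storage protein genes that jasmonate induces, entered no list. It was at 218 FPKM in clf-28 leaves and 9.57 FPKM in wt leaves, a log2 ratio of 4.37, and how its fragments divide between the 2 genes is not known. A locus without a name on chromosome 3, 20317547 to 20318101, was at 5.67 FPKM in clf-28 leaves and 0.0171 FPKM in wt leaves, a log2 ratio of 2.71. Among the other loci kept apart, 29 of 866 with several names, 75 of 1204 with a spread name and 3 of 71 without a name were at least 2-fold higher in clf-28 leaves (3.35%, 6.23% and 4.23%), and 5, 49 and 5 were at least 2-fold lower (0.577%, 4.07% and 7.04%), beside 5.51% higher and 1.25% lower of the genes with a locus of their own.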

How the results depend on the processing

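The count of 902 genes higher and 205 lower in clf-28 leaves stayed within 1.5 times under other filters, scalings and locus sets, and moved with the pseudocount: with 5 FPKM it was 482 higher and 57 lower, and with 0.1 FPKM 404 were lower and 1163 higher. Leaving out the FPKM filter could not change the count. With a pseudocount of 1, a gene under 1 FPKM in both libraries cannot reach a 2-fold difference. With a pseudocount of 5 the median of floral organ identity genes was 1.3 and that of flowering promoters 0.62. Of the 27 lists, the PRC1 and reader list and the list of factors that counteract the mark changed sign under a scaling: the first had a median of 0.06 and, with quantile scaling, -0.01; the second had -0.01 and, with centring on the median, 0.01. With a filter of 5 FPKM, the median of flowering repressors was -0.11, not 0.12, and that of flavonol and anthocyanin genes 0.04, not -0.16. Quantile scaling moved the median of all genes to -0.07. The limma count of 0 at an adjusted p under 0.05 held under its 8 alternatives, the smallest adjusted p being 0.222, with a pseudocount of 5. With 2 residual degrees of freedom in the main setting, even a log2 difference of -5.18 (AT3G16670) did not pass. The count of 0 therefore does not show that leaves responded like the other organs. Within leaves, no paired analysis was possible because each genotype is 1 library and the labels carry no replicate numbers; the limma model pairs genotypes by organ as its main design. The intervals of the floral genes under 1 FPKM reach 0, as do those of 91.4% of genes at 1 FPKM or more in clf-28 leaves. The floral genes compared below that level are given as values only.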

Other observations

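Genes past the 2-fold rule also lay side by side. Over measured genes in chromosome order, 19 runs of 3 or more all passed it in 1 direction, and 15 of them, 14 higher in clf-28 leaves, held at least 3 deposited spans that do not overlap. How many runs a random order would give, at 5.51% higher and 1.25% lower over all genes, was not worked out. The count is therefore a description and does not show clustering. The run with most names, 5 on chromosome 4 (7879561 to 7898525), is only 2 spans: UNE15, an LEA family gene at 8.57 FPKM in clf-28 leaves and 1.91 FPKM in wt leaves, shares its span with MIR841a and the histone gene HTA4, at 81.5 FPKM in clf-28 leaves and 24.6 FPKM in wt leaves, and AT4G13575, at 216 FPKM in clf-28 leaves and 39.8 FPKM in wt leaves, shares the other with AT4G13572. How fragments divide within each span is not known. Other runs were families of like genes, such as the O-methyltransferases IGMT1, IGMT3 and IGMT2, with log2 ratios of 1.52, 1.82 and 2.46, and the polygalacturonase inhibitors PGIP1 and PGIP2, with 1.58 and 1.60; the lncRNA locus AT5G06865 has the same span as PGIP1 and may hold the same fragments. A run on chromosome 5 joined RD29B and COR78 to CYP96A4, a cytochrome P450 gene at 14.9 FPKM in clf-28 leaves and 1.42 FPKM in wt leaves. The only lower run held the lipid transfer protein genes AZI1, EARLI1 and AT4G12490 on chromosome 4, with AZI1 at 43.3 FPKM in clf-28 leaves and 105 FPKM in wt leaves and EARLI1 at 37.6 FPKM in clf-28 leaves and 105 FPKM in wt leaves. In a higher run on chromosome 3, 2 loci named AT14A carried equal values, each at 30.2 FPKM in clf-28 leaves and 9.39 FPKM in wt leaves. Reads of near-identical neighbours may have been split between them.

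Genes of dark and sugar starvation were higher for 5 of 14 measured and lower for 0, with a median of 0.74, beside 5.51% higher and 1.25% lower over all measured genes. ASN1, an asparagine synthetase gene that carbon shortage induces, was at 686 FPKM in clf-28 leaves and 258 FPKM in wt leaves, and DRM2 was at 812 FPKM in clf-28 leaves and 353 FPKM in wt leaves. Iron genes had 1 higher and 1 lower of 20, BTSL1 with 1.32 and the transporter gene YSL1 with -1.13, which is near the share over all genes. Among 19 glucosinolate genes only CYP81F2, of indole glucosinolate modification, passed, at 17.1 FPKM in clf-28 leaves and 5.89 FPKM in wt leaves. Flavonoid genes had 0 of 9 past the rule.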
